A study of Mus musculus with 7 samples.

Results

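Transcript levels of 7 myeloid chemokine genes (Ccl3, Ccl4, Ccl5, Ccl6, Ccl9, Cxcl2 and Cxcl10) and of Wfdc17, a small secreted-protein gene that lies in the same chromosomal cluster, were examined in haematopoietic stem cells (HSCs) taken from the marrow of mice. All 8 genes were found by symbol among the 28786 genes of the count table, and all 8 passed the filter on low counts. Ccl6 and Wfdc17 were chosen by their higher CPM in the MC38 libraries, the contrast described here, so their values are a description and carry no test; the other 6 were named by family, with earlier results of these data known. The series, as its title and design text put it, asks how a tumour and interferon gamma turn HSCs towards myeloid output. The labels give a control group of normal mice with 3 libraries and a group of C57BL/6J mice with MC38 colon cancer with 4 libraries, MC38 being a colon carcinoma line that grows in this strain. All animals were 6 to 8 weeks old, no genotype or drug is named for either group, and each library was made from 1500 sorted cells by a low-input protocol with 12 PCR cycles. The sources used here do not give the sort markers, the tumour's site or its duration. They also do not say whether each library is a separate animal, so p-values measure a spread between libraries that may be technical.

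Chemokines are small secreted proteins that steer leukocytes by binding G protein-coupled receptors, and the CC and CXC classes differ in the spacing of their first cysteines. Mature neutrophils, monocytes, macrophages and lymphocytes are their main sources in marrow, and several are switched on by NF-kB or interferon signalling. Ccl3 is known as an inhibitor of the division of early haematopoietic cells. Wfdc17 encodes a whey acidic protein (WAP) domain protein that activated macrophages and microglia secrete, and proteins of this family include inhibitors of neutrophil proteases.

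Of the 8 genes, 6 lie within 180.5 kb of chromosome 11 (GRCm38), from 83525778 to 83706268, in the order Ccl5, Ccl9, Ccl6, Ccl3, Ccl4 and Wfdc17. Cxcl2 (90903871 to 90905938, forward strand) and Cxcl10 (92346638 to 92348889, reverse strand) lie on chromosome 5. Promoter sequence from RefSeq (GRCm38.p6, 250 bases before to 50 after the annotated start) was at hand for 6 of the 8. Ccl6 and Ccl9 are shown first because they are neighbours, 9.24 kb apart on the reverse strand, and the groups were apart for Ccl6 but overlapped for Ccl9. Their promoters share a stretch of 74 aligned columns with 59 identical bases (79.7%), set in capitals. It runs from 59 bases before the Ccl6 start to 14 after it, and from 18 before to 48 after the Ccl9 start. It scored 71 in local alignment, against 20 or less for the other 14 pairs among the 6 promoters.
Ccl6, chr11:83593038-83593337, reverse strand: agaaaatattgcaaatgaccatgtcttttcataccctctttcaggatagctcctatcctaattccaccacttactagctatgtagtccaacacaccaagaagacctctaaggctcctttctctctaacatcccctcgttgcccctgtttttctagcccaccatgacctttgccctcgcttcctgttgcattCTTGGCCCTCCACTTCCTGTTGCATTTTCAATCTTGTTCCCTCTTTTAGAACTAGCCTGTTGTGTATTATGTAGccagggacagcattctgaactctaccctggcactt
Ccl9, chr11:83578587-83578886, reverse strand: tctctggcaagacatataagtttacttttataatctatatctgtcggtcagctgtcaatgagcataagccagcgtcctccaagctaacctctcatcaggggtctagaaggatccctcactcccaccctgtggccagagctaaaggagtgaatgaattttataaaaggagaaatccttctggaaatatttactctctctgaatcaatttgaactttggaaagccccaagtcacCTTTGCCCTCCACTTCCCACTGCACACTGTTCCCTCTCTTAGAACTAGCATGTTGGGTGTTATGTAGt

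Wfdc17, Cxcl2 and Cxcl10 are shown for the inducible motifs in them, with every match set in capitals. Motifs were searched on both strands, and their spans may overlap. They were NF-kB (by its degenerate consensus), the interferon-stimulated response element or ISRE (GAAA, any 2 bases, GAAA), PU.1 (GAGGAA), AP-1 (TGACTCA or TGAGTCA), C/EBP (TTGCNNAA) and STAT (TTCC, any 3 bases, GAA).
Wfdc17, chr11:83703806-83704105, forward strand: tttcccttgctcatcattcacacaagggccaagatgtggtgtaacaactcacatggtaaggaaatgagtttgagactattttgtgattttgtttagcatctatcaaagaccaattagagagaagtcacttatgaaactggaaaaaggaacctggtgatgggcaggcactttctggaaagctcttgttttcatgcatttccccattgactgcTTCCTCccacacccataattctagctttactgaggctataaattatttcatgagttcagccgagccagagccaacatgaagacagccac
Cxcl2, chr5:90903649-90903948, forward strand: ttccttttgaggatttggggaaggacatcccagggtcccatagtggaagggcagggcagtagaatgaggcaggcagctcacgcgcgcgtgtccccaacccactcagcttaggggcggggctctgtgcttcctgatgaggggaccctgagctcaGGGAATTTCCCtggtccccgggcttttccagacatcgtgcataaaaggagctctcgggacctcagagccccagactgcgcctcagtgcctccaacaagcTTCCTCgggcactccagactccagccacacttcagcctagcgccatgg
Cxcl10, chr5:92348840-92349139, reverse strand: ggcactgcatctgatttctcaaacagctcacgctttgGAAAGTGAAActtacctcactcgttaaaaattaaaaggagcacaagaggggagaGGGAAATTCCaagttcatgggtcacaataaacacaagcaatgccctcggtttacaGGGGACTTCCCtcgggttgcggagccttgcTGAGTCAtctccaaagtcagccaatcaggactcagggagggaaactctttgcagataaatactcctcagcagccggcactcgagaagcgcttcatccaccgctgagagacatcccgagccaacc

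An NF-kB match was present in 3 of the 6 promoters (Cxcl2, Cxcl10 and Ccl9) and in 8.46% of all 32851 RefSeq promoters of the same length. Cxcl2 held it 97 bases before the start, where it reads on both strands. Cxcl10 held overlapping matches that begin 104 and 103 bases before the start and another match 159 bases before it. Cxcl10 was the 1 promoter of the 6 with an ISRE match, 213 bases before the start (3.44% of all promoters), and the 1 with an AP-1 match (5.2% of all). PU.1, named for the myeloid factor encoded by Spi1, matched in Wfdc17, Cxcl2 and Ccl3 (28.3% of all). The C/EBP and STAT letters were in none of the 6 windows and in 10.8% and 3.91% of all promoters. The Ccl6 window held no match to any of these motifs. The GENCODE model of Wfdc17 begins 65 bases upstream of the RefSeq start used here. A match describes letters only.

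The 2 control libraries used held 12131546 and 12306066 counts, and the 4 MC38 libraries 13368238 to 17657037. The third control column was not used as a library. Its values for the 8 genes were 0.352 to 0.373 of the sum of the other controls, where the median over 9652 well-counted genes was 0.353, with 95% of genes between 0.341 and 0.371. Levels are CPM, counts per 1000000 after TMM scaling, and means stand with their SD over n = 2 (control) or n = 4 (MC38). In the comparison of MC38 with control (edgeR, 14226 genes, Benjamini-Hochberg threshold of 0.05), 1.04% of genes were called higher in MC38 and 0.569% lower. Before adjustment, 9.26% of genes lay under 0.05 in the higher direction and 8.22% in the lower. These shares are the background of every unadjusted count given for a list, and the adjusted shares that of every count of edgeR calls. For DESeq2 calls the shares of all genes were 4.17% higher and 2.59% lower, and for limma-voom calls 0.696% and 0.576%. The stem cell markers were present in both groups, with a summed level of 1954 to 2125 CPM in control and 1860 to 2082 in MC38. None of these 12 markers was called by edgeR or limma-voom, 1 in each direction fell below 0.05 before adjustment, and DESeq2 made 1 call each way. The 12 neutrophil markers described below summed to more, 28180 to 28490 CPM in control and 54310 to 61950 in MC38. The purity of the sorted cells was not tested.

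Ccl6 and Wfdc17 were the members with the widest gap between the groups. Ccl6 (ENSMUSG00000018927), a CC chemokine of myeloid cells that attracts monocytes and macrophages, was at 125 and 135 CPM in the controls. In MC38 replicates 1 to 4 it was at 344, 326, 328 and 325 CPM. All 4 MC38 libraries lay above both controls, and replicate 1 stood above the other 3. The mean went from 129.9 ± 7.27 to 330.5 ± 8.99 CPM, a 2.54-fold difference.

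Wfdc17 (ENSMUSG00000069792) was at 99.1 and 95.4 CPM in the controls and at 234, 242, 265 and 240.3 CPM in MC38 replicates 1 to 4. Again no library of either group reached into the other. Its mean went from 97.3 ± 2.63 to 245 ± 13.4 CPM, 2.52-fold. Ccl6 and Wfdc17 kept nearly the same ratio to each other in both groups, 1.34 ± 0.111 Ccl6 counts per Wfdc17 count in control and 1.35 ± 0.0949 in MC38. Since both were picked for a higher level in MC38, this likeness follows in part from the picking. By rank of fitted fold change they stood 848th and 859th from the top of the 14226 genes. An annotated transcript, E230016K23Rik, overlaps Ccl6 on the other strand and has no row in the count table, and whether the counting used strand is not stated in these sources.

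**Figure D1:**
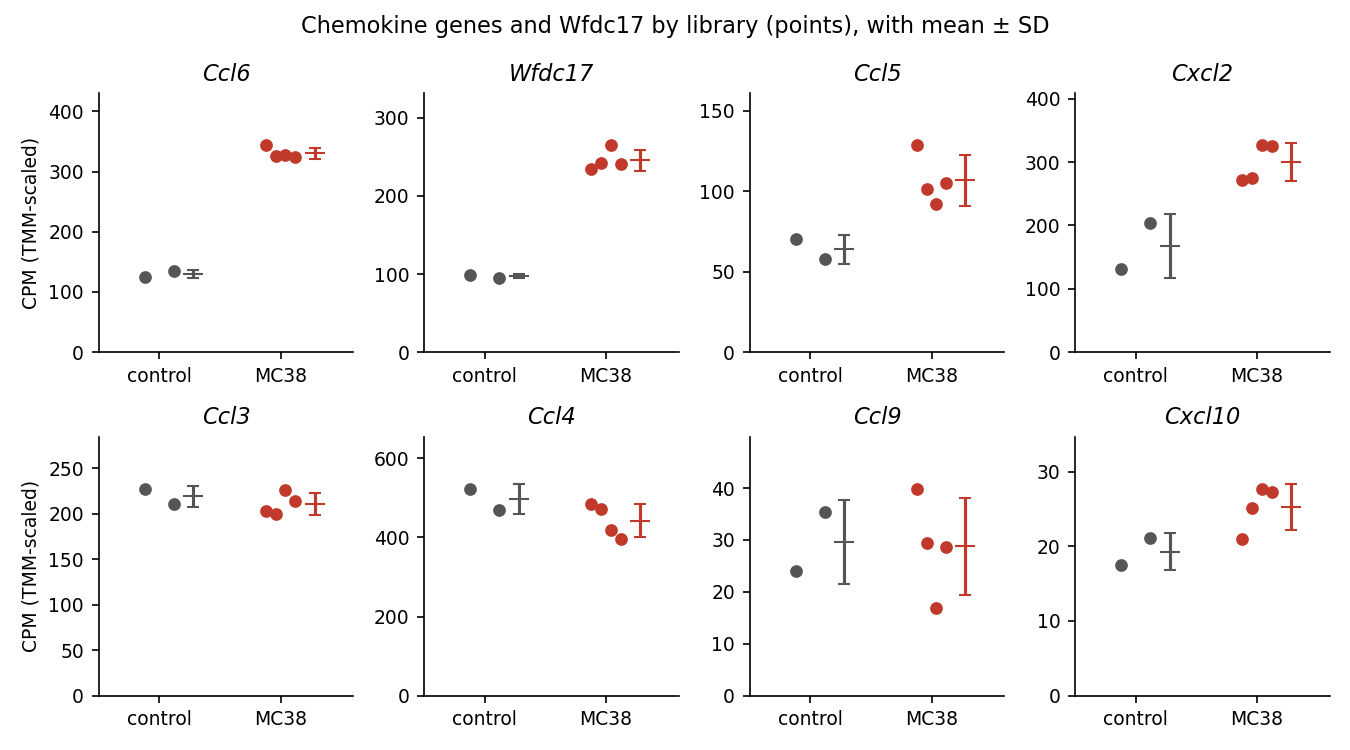
Level of each gene (CPM after TMM scaling, axes from 0) in the 2 control and 4 MC38 libraries (points), with mean and SD beside them. Ccl6, Wfdc17, Ccl5 and Cxcl2 have every MC38 point above both control points, and the other 4 overlap. Over all tested genes, 14.0% lay above in this way and 15.0% below, and Ccl6 and Wfdc17 were picked for this pattern.

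Ccl5 and Cxcl2 were higher in every MC38 library than in both controls but missed the threshold. Ccl5, which attracts T cells, monocytes and eosinophils, was at 70.2 and 57.6 CPM in the controls and at 129, 101, 91.8 and 105 CPM in MC38 replicates 1 to 4. Its log2 fold change was 0.74 ± 0.17 SE, or 1.67-fold, at an adjusted p of 0.0686 in edgeR. Cxcl2, a neutrophil attractant that binds Cxcr2, was at 131 and 203 CPM in the controls and at 272, 274, 327 and 326 CPM in MC38. Its log2 fold change was 0.84 ± 0.18 SE, or 1.79-fold, at an adjusted p of 0.0552 in edgeR, and the controls differed from each other by more than the MC38 libraries did.

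The side of the threshold on which these 2 genes fell depended on the method. With DESeq2 the adjusted p was 0.00307 for Ccl5 and 0.000353 for Cxcl2, a test that called 4.17% of all genes higher in MC38 and 2.59% lower. With limma-voom it was 0.0944 and 0.0492, and that test called 0.696% higher and 0.576% lower. Both genes passed with no filter on low counts, as did 1.41% of genes in that direction. They also passed with all 7 columns, as did 5.74%, but that fit counts a control column that is not independent. Leaving out MC38 replicate 3 brought both under the threshold (adjusted p = 0.034 and 0.0386 in edgeR, with 1.39% of genes called higher). Cxcl2 also passed without MC38 replicate 1 (0.0258, with 1.86% called) or control replicate 2 (0.0499, with 0.383% called), while without control replicate 1 the values were 0.222 for Ccl5 and 0.31 for Cxcl2. Over all 15 alternatives the log2 fold change ran from 0.61 to 0.89 for Ccl5 and from 0.56 to 1.19 for Cxcl2.

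Ccl3, Ccl4 and Ccl9 had overlapping groups. Ccl3, a ligand of Ccr1, was at 228 and 211 CPM in the controls and at 204, 199.7, 226 and 214 CPM in MC38 (edgeR: log2 fold change -0.06 ± 0.11 SE, adjusted p = 0.855). Ccl4, an attractant of monocytes and T cells encoded 13.2 kb from Ccl3, was at 523 and 469.5 CPM in the controls and at 486, 471, 418 and 396 CPM in MC38 (edgeR: log2 fold change -0.16 ± 0.12 SE, adjusted p = 0.54). The 2 MC38 libraries with the least Ccl4, replicates 3 and 4, were those with the most Ccl3. There were 2.30 and 2.23 Ccl4 counts per Ccl3 count in the controls, 2.39 and 2.36 in MC38 replicates 1 and 2, and 1.85 in both MC38 replicates 3 and 4.

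Ccl9, a Ccr1 ligand of macrophages and myeloid cells, varied among libraries more than between groups. It was at 23.9 and 35.3 CPM in the controls and at 39.9, 29.5, 17.0 and 28.7 CPM in MC38 (edgeR: log2 fold change -0.04 ± 0.32 SE, adjusted p = 0.96). Its sign turned with the library left out, from -0.30 without control replicate 1 to 0.27 without control replicate 2. The neighbours Ccl6 and Ccl9, whose promoters share the stretch printed above, were thus counted at 5.21 and 3.82 Ccl6 per Ccl9 count in the controls and at 8.62, 11.1, 19.3 and 11.3 in MC38.

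Cxcl10, an interferon-inducible ligand of Cxcr3, was low, at 17.6 and 21.05 CPM in the controls and at 20.9, 25.1, 27.7 and 27.2 CPM in MC38. MC38 replicate 1 lay just under the higher control. The log2 fold change was 0.39 ± 0.23 SE at an adjusted p of 0.427 in edgeR, and no alternative called it (adjusted p from 0.192 to 0.756). Art3, which overlaps Cxcl10 on the other strand, had at most 45 counts in a library.

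Of the 6 members not picked for their pattern, 0 were called by edgeR. Before adjustment 2 were under 0.05 (Ccl5 and Cxcl2, both higher, against 9.26% of all genes in that direction). DESeq2 called these 2 higher and limma-voom called Cxcl2 higher (4.17% and 0.696% of all genes in that direction). Counting the picked genes, 4 of 8 members had every MC38 library above both controls, against 14.0% of all tested genes, and 0 had every one below, against 15.0%. Since the choice of members used this contrast, the share is given as a description. The summed share of the 8 genes was 0.120 ± 0.00099% of a control library and 0.170 ± 0.0025% of an MC38 library. The 6 not picked for this contrast summed to 995.7 ± 2.86 CPM in control and 1114 ± 24.9 CPM in MC38, 1.12-fold.

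Per kilobase of exon, Ccl4 was the most abundant member in both groups. In control the order of levels, in CPM per kb, was Ccl4 (752 ± 57.5), Ccl3 (286 ± 15.6), Wfdc17 (183 ± 4.93), Cxcl2 (80.9 ± 24.7), Ccl6 (72.4 ± 4.05), Ccl5 (66.5 ± 9.24), Ccl9 (9.73 ± 2.64) and Cxcl10 (8.57 ± 1.10). Cxcl2, Ccl6 and Ccl5 were not separated from each other beyond their spread, nor were Ccl9 and Cxcl10. In MC38 Wfdc17 (460 ± 25.2) stood above Ccl3 (275 ± 15.5), and Ccl6 (184 ± 5.01) stood above Cxcl2 (145 ± 14.8) and Ccl5 (111 ± 16.3). Ccl4 (671 ± 64.3) remained first in order, and Cxcl10 (11.2 ± 1.38) and Ccl9 (9.44 ± 3.08) last, again within their spread. Over both groups Ccl4 lay at the 99.2 percentile of tested genes in CPM per kb, and Ccl9 and Cxcl10 at the 68.0 and 69.7 percentiles.

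Along chromosome 11 the genes with higher levels in MC38 were interleaved with genes whose groups overlapped, and 2 tested flanking genes were lower in every MC38 library. The genes of the cluster and 10 on either side numbered 32 in the count table, of which 19 were tested and 9 had no count in any of the 6 libraries. Leaving out Ccl6 and Wfdc17, 1 of 17 was called higher and 0 lower, against 1.04% and 0.569% of all genes, and the median log2 fold change was -0.03 against 0.01 over all genes. The called gene was Wfdc21 (ENSMUSG00000051748, 83746940 to 83752642), a WAP family gene of neutrophils and epithelia. It was at 366 and 377 CPM in the controls and at 737, 695, 589 and 654 CPM in MC38 (edgeR: log2 fold change 0.85 ± 0.12 SE, adjusted p = 0.00987). Wfdc18 (83709015 to 83711348), 2.75 kb beyond Wfdc17 and named here after its values were seen, was at 4.83 ± 0.646 and 5.29 ± 0.359 CPM (adjusted p = 0.91 in edgeR). The Wfdc21 call was lost without control replicate 1 (adjusted p = 0.15) or control replicate 2 (0.0932). At an unadjusted p under 0.05, 2 of the 17 were higher and 2 lower (9.26% and 8.22% of all genes). DESeq2 called 2 higher and 0 lower (4.17% and 2.59% of all genes), and limma-voom 1 and 0 (0.696% and 0.576%). The lower ones, Ddx52 and Acaca, are named here after their values were seen. Ddx52 was at 47.9 ± 13.5 CPM in control and 29.9 ± 1.39 in MC38 (adjusted p = 0.127 in edgeR). Acaca was at 15.1 ± 1.17 and 6.82 ± 2.76 CPM (adjusted p = 0.209 in edgeR).

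**Figure D2:**
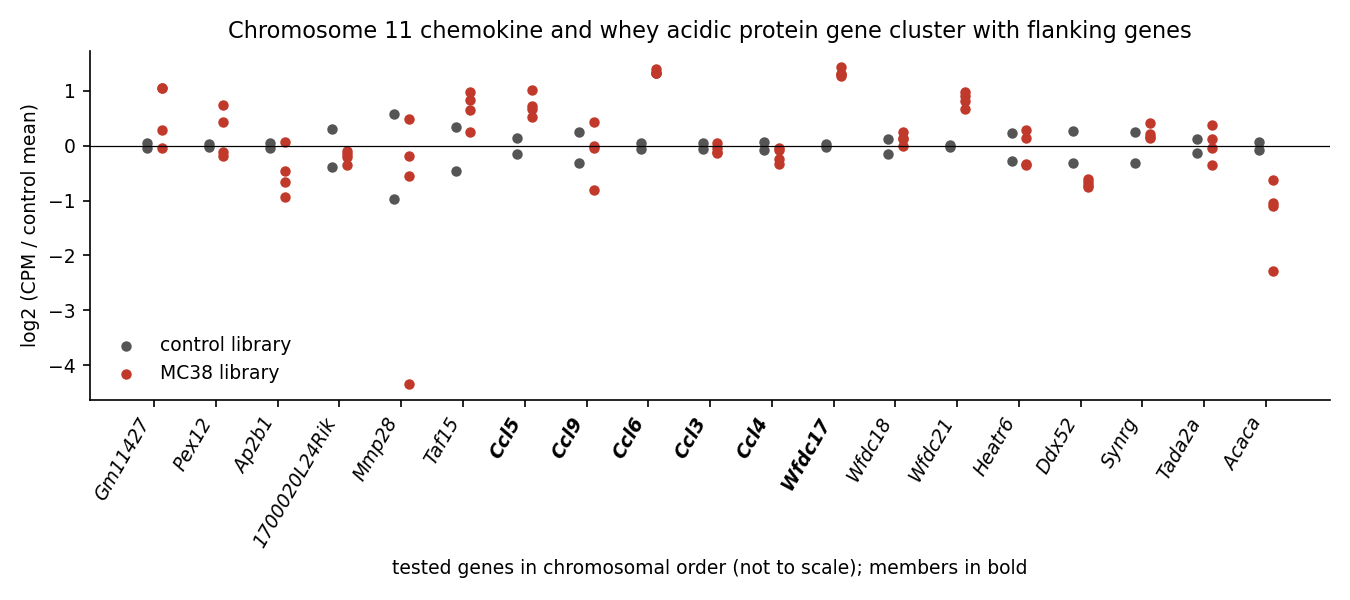
Log2 of CPM over the control mean for the 19 tested genes of the chromosome 11 cluster and its flanks, in chromosomal order but not to scale, with a point per library. Ccl6, Wfdc17, Wfdc21 and Ccl5 have all 4 MC38 points above both control points, while Ccl9, Ccl3, Ccl4 and Wfdc18 between and beside them do not. Ddx52 and Acaca in the right flank have all 4 below. Over all tested genes, 14.0% lay above in this way and 15.0% below, and Ccl6 and Wfdc17 were picked for this pattern.

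Among the other whey acidic protein family genes, Slpi, an inhibitor of neutrophil elastase, was also higher in MC38. It was at 319 and 265 CPM in the controls and at 552, 523, 414 and 455 CPM in MC38 (edgeR: log2 fold change 0.73 ± 0.15 SE, adjusted p = 0.0464). Of 6 members tested besides Wfdc17, 2 were higher (Wfdc21 and Slpi) and 0 lower, against 1.04% and 0.569% of all genes. The Slpi call did not hold with immunoglobulin genes left out (adjusted p = 0.058), nor without either control (0.182 and 0.198) or MC38 replicates 2 (0.135) or 4 (0.1). The median log2 fold change of these 6 was 0.79, and 0.43 over the 4 that reached 1 CPM in a control, a limit chosen after seeing the data that leaves out Wfikkn1 and Wfikkn2. No count in any of the 6 libraries was seen for Wfdc1, Wfdc6a, Wfdc8, Wfdc15b and Wfdc16.

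In the wider family of 38 chemokine ligand genes, Ccl2 went down. Ccl2, the main monocyte attractant and a ligand of Ccr2, fell from 56.0 and 56.1 CPM in the controls to 26.6, 25.03, 29.6 and 30.3 CPM in MC38 (edgeR: log2 fold change -1.01 ± 0.17 SE, adjusted p = 0.0205). It lies on chromosome 11 too, at 82035571 to 82037453, outside the window above. Of the 19 ligand genes tested besides Ccl6, edgeR called 0 higher and 1 lower (1.04% and 0.569% of all genes). At an unadjusted p under 0.05, 7 were higher and 2 lower (9.26% and 8.22% of all genes). DESeq2 called 6 and 1 (4.17% and 2.59% of all genes), and limma-voom 1 and 1 (0.696% and 0.576%). The median log2 fold change of these 19 was 0.39. Cxcl3 had no count in the controls, and its bound was at least 11.7-fold higher (3 counts over both controls). Setting Cxcl3 to that bound could not move the median, since the bound and the fitted value both lie above it. Cxcl3 and Cxcl14, named here after their values were seen, were near 0 in the controls and passed the filter through the MC38 libraries. The median over tested genes and the counts of higher ligands therefore lean upward, and both genes were among the 6 that DESeq2 called higher. The Ccl2 call did not hold with control replicates 1 or 2 left out (adjusted p = 0.161 and 0.108), nor with MC38 replicates 2 or 4 left out (0.0847 and 0.074). Of the 18 ligand genes not tested, 8 had no count in any of the 6 libraries, among them Ccl11, Ccl20, Ccl22 and Cxcl13.

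**Figure D3:**
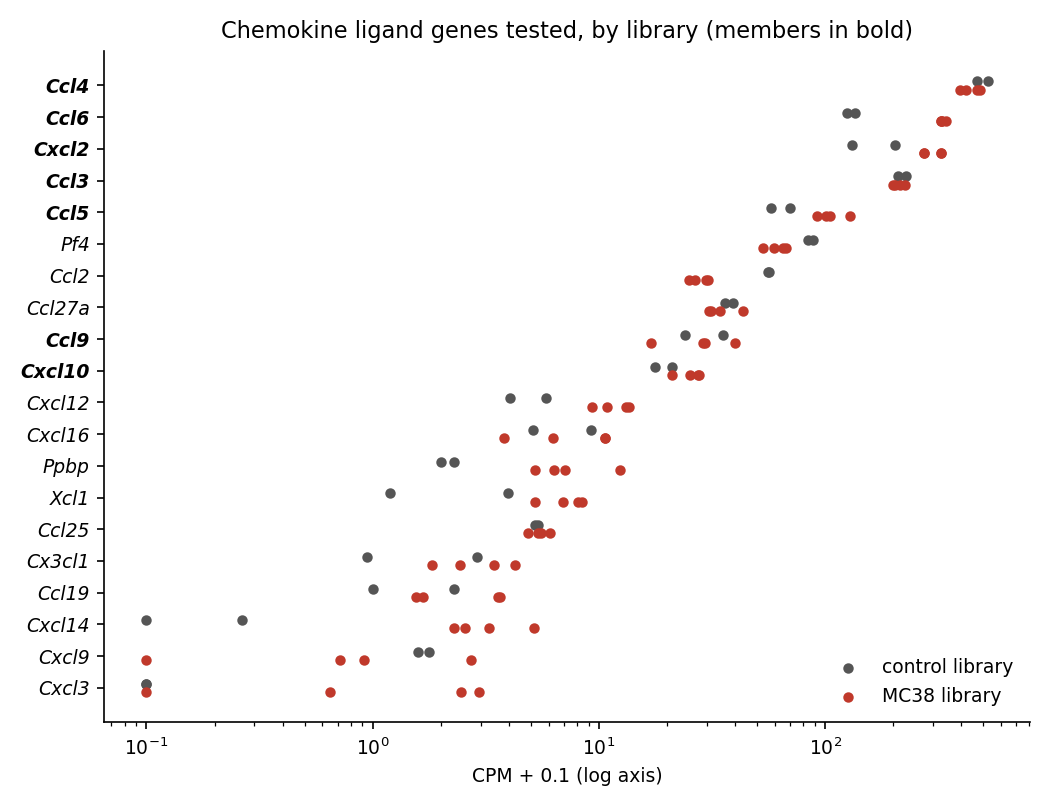
CPM plus 0.1 on a log axis for the 20 tested chemokine ligand genes, with a point per library and the 7 members in bold. Ccl6, Ccl5, Cxcl2, Cxcl12, Cxcl14, Ppbp and Xcl1 have all 4 MC38 points above both control points, and Ccl2 and Pf4 have all 4 below. Over all tested genes, 14.0% lay above in this way and 15.0% below. Ccl6 was picked for this pattern, and Cxcl14 was near 0 in the controls.

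Among the receptors for these ligands, Ccr1, which binds Ccl3, Ccl5, Ccl6 and Ccl9, was higher in MC38. It was at 26.5 and 16.7 CPM in the controls and at 55.3, 53.7, 100.2 and 93.7 CPM in MC38 (edgeR: log2 fold change 1.81 ± 0.33 SE, adjusted p = 0.0305), 3.50-fold. MC38 replicates 3 and 4 lay well above replicates 1 and 2, and all 4 above both controls. Cxcr2, the Cxcl2 receptor of neutrophils, was at 174 ± 23.8 and 208 ± 61.3 CPM (adjusted p = 0.64 in edgeR). Of 6 receptor genes tested 1 was higher and 0 lower, against 1.04% and 0.569% of all genes. Their median log2 fold change was 0.50, and Ccr3 had no count. The Ccr1 call did not hold in limma-voom (adjusted p = 0.0737) or without control replicate 1 (0.148), control replicate 2 (0.165) or the fourth MC38 replicate (0.085).

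Of 21 NF-kB and TNF inducible genes tested, 1 was called higher and 0 lower, against 1.04% and 0.569% of all genes. At an unadjusted p under 0.05, 5 were higher and 0 lower (9.26% and 8.22% of all genes). DESeq2 called 3 higher and limma-voom 1 (4.17% and 0.696% of all genes). The 1 called by edgeR was Il1b, the inflammatory cytokine of monocytes and neutrophils. It rose from 99.4 ± 10.02 to 239.6 ± 33.3 CPM (edgeR: log2 fold change 1.27 ± 0.16 SE, adjusted p = 0.00402), and the list median was 0.14. Nfkbia, the NF-kB feedback inhibitor, was at 947 ± 39.9 and 1299 ± 82.0 CPM (adjusted p = 0.0694 in edgeR and 0.00164 in DESeq2), and Zfp36, an RNA-decay factor for chemokine transcripts, at 3070 ± 327 and 2743 ± 50.4 CPM (adjusted p = 0.455 in edgeR). The Il1b call was lost without control replicate 1 (adjusted p = 0.0665) or 2 (0.0759).

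Of 19 interferon-inducible genes tested alongside Cxcl10, edgeR and limma-voom called 0, while 3 were higher and 1 lower at an unadjusted p under 0.05 (9.26% and 8.22% of all genes) and DESeq2 called 2 higher (4.17% of all genes). Their median log2 fold change was 0.05. Cxcl9, a Cxcr3 ligand like Cxcl10 and outside the naming rule, was at 1.58 ± 0.138 and 1.01 ± 1.13 CPM (adjusted p = 0.869 in edgeR). Irf1, which interferon gamma induces, stood at 135 ± 8.75 CPM in control and 135.0 ± 4.25 in MC38 (adjusted p = 0.994 in edgeR).

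Among 15 myeloid regulators and cytokine receptors, Csf3r, the G-CSF receptor, rose from 140 ± 10.1 to 219 ± 12.9 CPM (adjusted p = 0.0322 in edgeR). Csf2ra, a GM-CSF receptor chain, rose from 73.3 ± 10.9 to 126 ± 9.89 CPM (adjusted p = 0.0333 in edgeR). Klf4, a monocyte and immediate early factor, fell from 409 ± 11.4 to 195 ± 28.8 CPM (adjusted p = 0.00546 in edgeR). Thus 2 were higher and 1 lower, against 1.04% and 0.569% of all genes, with a median log2 fold change of 0.26. Both receptor calls were lost without either control or without MC38 replicates 2 or 4 (highest adjusted p = 0.251 for Csf3r and 0.155 for Csf2ra), and the Klf4 call without control replicate 1 (0.112) or 2 (0.0739).

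Neutrophil markers were higher alongside Ccl6 and Wfdc17. Of 12 neutrophil markers tested, 9 were higher in MC38 and 0 lower, against 1.04% and 0.569% of all genes. The median log2 fold change of the 12 was 1.11, and none was at 0. Their summed level was 28180 to 28490 CPM in control and 54310 to 61950 in MC38, and they took 2.78 ± 0.0148% and 5.86 ± 0.264% of counts. Ngp, a granule protein of maturing neutrophils, rose from 4091 ± 174 to 9125 ± 132 CPM (adjusted p = 0.000345 in edgeR). Retnlg, a resistin-like neutrophil product, rose from 1286 ± 38.8 to 2956 ± 165 CPM (adjusted p = 0.000532 in edgeR). Without control replicate 1 the calls of Cd177, Ltf, Lcn2, Mmp9 and S100a8 were lost (adjusted p from 0.0523 to 0.0919), and those of Cd177, Lcn2 and Mmp9 also without control replicate 2 (0.0501 to 0.0745).

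Dividing each member by this 1 marker total lowers every fold by about the 2.1-fold difference in the total itself, so it adds no separation among the members. Ccl6 gave 4.38 and 4.79 counts per 1000 neutrophil marker counts in the controls and 5.55, 5.51, 6.04 and 5.66 in MC38, so that its difference between group means was 1.24-fold on this scale. Wfdc17 gave 3.48 and 3.39 in the controls and 3.78, 4.11, 4.88 and 4.18 in MC38, 1.23-fold. Ccl3 gave 7.99 and 7.48 in the controls and 3.29, 3.38, 4.16 and 3.73 in MC38, 0.471 of the control level, where its CPM ratio was 0.962. On this scale the MC38 to control ratio was 0.434 for Ccl4, 0.467 for Ccl9, 0.641 for Cxcl10, 0.811 for Ccl5 and 0.877 for Cxcl2. In bulk libraries, more cells of a type and more RNA per cell cannot be told apart, and the part of neutrophil RNA in the levels of Ccl6 and Wfdc17 was not tested.

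**Figure D4:**
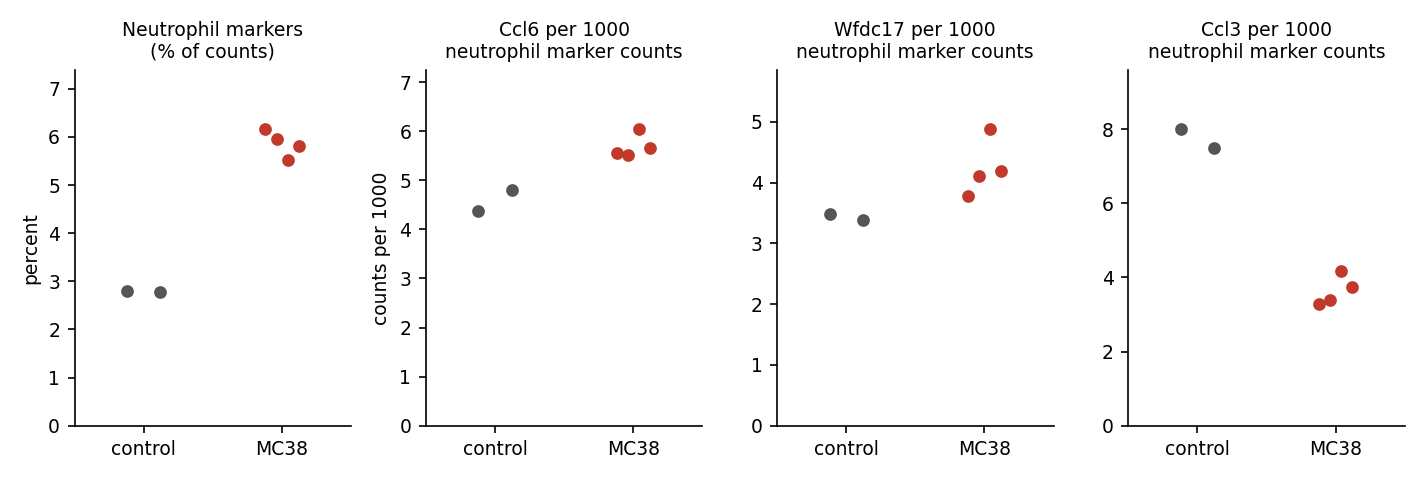
From left to right, the percentage of counts in 12 neutrophil markers and the counts of Ccl6, Wfdc17 and Ccl3 per 1000 neutrophil marker counts, with a point per library and axes from 0. The marker share goes from 2.78% to 5.86%, Ccl6 and Wfdc17 lie 1.24-fold and 1.23-fold higher in MC38 on the per-marker scale, and Ccl3, whose CPM ratio was 0.962, lies lower because the divisor is 2.1-fold larger.

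Other cells also make these chemokines. Of 16 monocyte and macrophage markers, sources of Ccl3, Ccl4, Ccl6 and Ccl9, 2 were higher and 0 lower (1.04% and 0.569% of all genes). The 16 summed to 2232 to 2294 CPM in control and 3104 to 3277 in MC38. The 2 were Lyz2, a lysozyme that neutrophils also make, and C1qa, a complement subunit of macrophages (adjusted p = 0.0256 and 0.0342 in edgeR). Their log2 fold changes were 0.55 and 4.63. Over the alternatives that of C1qa ran from 4.08 without control replicate 1 to 5.55 without control replicate 2, so its size depended on the control kept. Neither held with 1 control or with MC38 replicate 2 or 4 left out (highest 0.211 and 0.179), and with limma-voom C1qa was at 0.203. The 14 T and NK cell markers, a source of Ccl5, summed to 432.3 to 501.8 CPM in control and 432.2 to 468.2 in MC38. Their median log2 fold change was 0.72, within a range of -1.14 to 5.44, although the summed levels overlapped. The median does not weigh genes by their level. Every MC38 library lay above both controls for 7 of the 14 and below for 1 (14.0% and 15.0% of all genes). None of the 14 was called by edgeR or limma-voom, with 6 higher and 0 lower under 0.05 before adjustment (9.26% and 8.22% of all genes) and 5 higher by DESeq2 (4.17% of all genes). Dendritic cell markers summed to 1289 to 1547 and 1547 to 1761 CPM with 1 of 10 higher (1.04% of all genes). B and plasma cell markers summed to 2855 to 3359 and 5055 to 5940 CPM with 2 of 10 higher, against the same share. Basophil, mast cell and eosinophil markers summed to 88.6 to 94.0 CPM in control and 47.9 to 56.6 in MC38. Of 6 tested, 2 were lower (0.569% of all genes), and Ms4a2 of that list was the 1 marker with no count in any library. The part of these cells in the chemokine levels was not tested.

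The genes whose pattern over the 6 libraries lay nearest to Ccl6 and Wfdc17 were, first of all, each other. Likeness was the Euclidean distance between log2(CPM + 1) values centred on each gene's mean, among 9383 other genes with a mean of at least 10 CPM. Ccl6 and Wfdc17 were 0.212 apart. For Ccl6 the next were Retnlg (0.224), Hdc (0.241), a clone-named gene and Ngp (0.258). Hdc makes histamine and is expressed in basophils and myeloid cells. For Wfdc17 they were Mxd1 (0.213), a Myc antagonist of differentiating cells, Chil1 (0.225), a chitinase-like protein of neutrophils and macrophages, a gene ID without a symbol, and Ngp (0.245). Cxcl2 ranked 159th and Ccl5 247th by distance from Ccl6, while Ccl3, Ccl4 and Ccl9 ranked 4316th, 5599th and 6381st. With 2 groups, this distance follows mostly the difference between them, which the picking of Ccl6 and Wfdc17 used.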

How the data were processed

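The authors deposited a table of read counts per Ensembl gene, 28786 genes in 7 columns. The submitters' processing notes name HTSeq 0.10.0, STAR 2.6.1, Trim Galore 0.5.0 and mm10. The sources used here do not give the annotation, strand setting or filters. No molecular identifiers are named, so PCR copies count as reads. GENCODE mouse release 21 (GRCm38, the assembly of mm10) named 27728 IDs and gave coordinates and exon lengths; promoters came from RefSeq (GRCm38.p6). Control column 3 follows the other controls and was left out.

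MC38 (n = 4) was compared with control (n = 2) in edgeR 4.0.16 under R 4.3.3 (TMM, filterByExpr, robust quasi-likelihood test, Benjamini-Hochberg over 14226 genes, two-sided, no block), checked on simulated counts. DESeq2 1.42.0, limma-voom (limma 3.58.1) and 13 other alternatives were run. Promoter pairs were aligned locally (match 2, mismatch -3, gap opening -5, extension -2). Members and lists were chosen with earlier results of these data known. Genes named were the members, the 5 nearest in pattern to Ccl6 and to Wfdc17, and in each list the called genes, or the 2 most abundant added where fewer than 3 were called, leaving out clone-named genes; not all of these are described. Total counts per library ran from 12131546 to 17657037, and precision is limited by the number of libraries.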

Additional observations from a re-analysis of the deposited data

Results flagged for a closer look

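Among the values examined in the 4 MC38 libraries, 2 genes had a library that stood apart from the other 3 by the gap-to-range test. Ccl6 was at 344 CPM in MC38 replicate 1 and at 325 to 328 CPM in the other 3 libraries, a gap of 0.849 of the range. Irf8, a factor of monocyte and dendritic cell development, was at 124 CPM in MC38 replicate 1 and at 101 to 102 CPM in the others, a gap of 0.917 of the range. About 1 in 20 groups is picked out in this way by chance, and 52 genes were examined.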

How the results depend on the processing

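Ccl6 and Wfdc17 were above control in all 15 alternatives, with log2 fold changes of 1.29 to 1.41 and 1.29 to 1.37. Both were picked for being higher in these same libraries, so their direction here is no independent support. Ccl6 moved by more than its spread with a control left out, its range over left-out libraries being 1.29 to 1.41. Ccl3, Ccl4, Ccl9 and Cxcl10 were called in none of the 15 (Ccl9 adjusted p from 0.689 to 0.989). Ccl5 and Cxcl2 passed in edgeR without the low-count filter (adjusted p = 0.0203 and 0.0042) and with DESeq2 (0.00307 and 0.000353), and Cxcl2 with limma-voom (0.0492). Both also passed in edgeR with all 7 columns (0.011 and 0.00991), which include the control column that is not independent. With a library left out they ranged from 0.034 to 0.241 and from 0.0258 to 0.31.

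The 148 genes higher and 81 lower became 634 and 394 with DESeq2, 302 and 202 without the filter, 791 and 663 with all 7 columns, 95 and 36 without immunoglobulin genes, and 44 to 259 and 16 to 183 with a library left out. Both counts shifted by over 1.5 times without control replicate 1 (44 and 16), control replicate 2 (58 and 25), MC38 replicate 1 (259 and 183), MC38 replicate 2 (69 and 28) or MC38 replicate 4 (77 and 31). Chemokine ligands called higher besides Ccl6 numbered 6 with DESeq2, 1 with limma-voom, 3 without the filter, 5 with all 7 columns and 0 to 2 with a library left out; ligands called lower numbered 2 with all 7 columns (Ccl2 and Pf4) and 0 to 1 with a library left out. In the chromosome 11 window besides the picked genes, 2 were higher (Ccl5 and Wfdc21) with DESeq2, without the filter or with all 7 columns, 0 to 2 with a library left out, and 1 was lower (Ddx52) with all 7 columns. The counts with all 7 columns include the control column that is not independent. The cause of the shifts between alternatives was not tested.

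Replicate numbers are shared by the groups, but the labels do not say that they pair libraries. Same-numbered libraries deviated from their group means with a correlation of 0.0729 over genes for replicate 1 and -0.0521 for replicate 2. With the replicate block, 269 genes were higher and 190 lower, Ccl5 and Cxcl2 passed (adjusted p = 0.00849 and 0.0103), and 2 ligands and 2 window genes were higher. MC38 replicates 3 and 4 have no partner and add nothing to that fit's contrast.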

Other observations

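Within the MC38 group, several of the chemokine, receptor and other genes above fell into the same pairs of libraries. Replicates 1 and 2 had 272 and 274 CPM of Cxcl2, 486 and 471 of Ccl4, 55.3 and 53.7 of Ccr1, and 211 and 215 of Il1b. Replicates 3 and 4 had 327 and 326 CPM of Cxcl2, 418 and 396 of Ccl4, 100.2 and 93.7 of Ccr1, and 281 and 251.5 of Il1b. Slpi was at 552 and 523 CPM in the first pair and at 414 and 455 in the second, and Wfdc21 at 737 and 695 and at 589 and 654. The Ccl4 to Ccl3 count ratio, 2.39 and 2.36 against 1.85 and 1.85, showed the same pairs. Ccl5 (129 and 101 against 91.8 and 105 CPM), Ccl6 and Wfdc17 did not, as their values overlapped between the pairs. The labels give no date, batch or animal that would tell these libraries apart, the genes were chosen after their values were seen, and no test was made. The share of all tested genes that separate the same pairs was not counted, so no background stands beside these genes.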
